A study of Mus musculus with 12 samples.

Results

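The cytosolic ribosomal protein genes encode the proteins of the small (Rps) and large (Rpl) ribosomal subunits. They were taken as every row of the expression table whose symbol was Rpsa or began with Rps, Rpl or Rplp and a number, leaving out the S6 kinases (Rps6k), pseudogenes marked -ps and the binding protein Rps19bp1. The rule found 80 of 11022 genes, 32 of the small and 48 of the large subunit. Among paralogs, Rpl7l1, Rpl22l1, Rpl36al and Rps27l had a row, while Rpl3l, Rpl10l, Rpl39l, Rps4l, Rps27rt and the core gene Rpl26 were not analysed here.

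The 12 samples were cultured cytotoxic T lymphocytes (CTL) from LCMV-P14 TCR transgenic mice, whose T cells carry a receptor for the gp33-41 peptide of a virus. All cells, controls included, were activated for 48 h, expanded for 5 days and kept in IL-2 at 20 ng/mL. By the study's methods, the activation used the same gp33-41 peptide with IL-2 and IL-12, and DMSO was the vehicle control. On day 7 the cells rested for 1 h. They then stayed unstimulated, or received 100 ng/mL gp33-41 for 4 h alone (TCR), with 10 µM IC87114, which inhibits PI3K p110δ, or with 2 µM PD184252, which inhibits MEK. Each of the 4 groups held 3 samples, which the study made from female mice aged 9 to 13 weeks, using lymph nodes or spleens of 3 mice. All cells carried 1 transgenic receptor, and the cells were a culture-expanded population.

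Ribosomal proteins are made in matched amounts, assembled with ribosomal RNA in the nucleolus and exported as subunits. Most of their mRNAs begin with a C followed by a run of pyrimidines (the TOP motif), through which mTOR signalling, acting with the binding protein LARP1, governs how well they are translated. In T cells, activation through the antigen receptor is known to be followed by growth. The data here measured mRNA abundance alone, and translation was not measured.

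The pyrimidine run is shown because it is the feature described above for most of these mRNAs. RefSeq promoters on GRCm38.p6 (250 bases before to 50 after each annotated start) were matched for 59 of the 80 genes. A C at the annotated start followed by at least 4 bases of C or T stood in 13 of 59 genes (22%), against 3.12% of the 7970 genes of the expression table with a promoter. Annotated starts often lay some bases away from the run. Among the runs printed below, those of Rpl19 (11 bases from -11) and Rps27l (9 bases from -22) end before the annotated start. A C followed by at least 7 bases of C or T lay within 25 bases of the start, on the transcribed strand, in 32 of 59 genes (54.2%), against 19.2% of the 7970. Below are 30-base windows, 5′ to 3′, with that run in capitals, for a stalk protein (Rplp2), a partner of the 5S rRNA (Rpl11), exit tunnel proteins (Rpl19, Rpl35) and genes whose values are described later.
Rplp2 (chr7:141447639-141447668, plus strand): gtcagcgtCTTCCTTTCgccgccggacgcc
Rpl11 (chr4:136053358-136053387, minus strand): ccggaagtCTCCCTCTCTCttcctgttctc
Rpl19 (chr11:98026905-98026934, plus strand): ggcttgggCTCTCCCCTTCgcagataatgg
Rpl35 (chr2:39005117-39005146, minus strand): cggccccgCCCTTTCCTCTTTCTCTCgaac
Rps24 (chr14:24490668-24490697, plus strand): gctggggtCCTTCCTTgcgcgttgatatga
Rpl34 (chr3:130730333-130730362, minus strand): ctcacccgCCCCTTCCTTTTCCTCTTCCgg
Rpl22l1 (chr3:28805503-28805532, plus strand): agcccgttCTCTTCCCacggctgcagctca
Rps27 (chr3:90213629-90213658, minus strand): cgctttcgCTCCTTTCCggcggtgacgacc
Rps27l (chr9:66946056-66946085, plus strand): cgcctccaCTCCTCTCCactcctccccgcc

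Other letters searched on both strands of the same 300-base windows gave smaller contrasts. CCGGAAG, the core of an ETS site, was present at 23 of the 59 genes (39%) and at 21.6% of the 7970 genes. AAGATGGC, the core of a YY1 site, was present at 10.2% and 5.6%. The E-box CACGTG was present at 10.2% and 12.2%, and the GC-box GGGCGG at 64.4% and 70%. These matches describe letters and were not tested as sites.

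Values were FPKM (fragments per kilobase of exon, scaled for library size), as deposited on a scale normalised between libraries. Levels of different genes are compared per length of annotated exon. On that scale the genes were among the most abundant in the cells: the median ribosomal protein gene stood at percentile 99.39 to 99.42 of all genes in every library. The mean FPKM over the 12 samples had a median of 1412.2, and 70 of the 80 genes were above 500 FPKM. The highest were Rplp1, a protein of the acidic stalk that recruits elongation factors, Rpl32 and Rpl41. Another 6 genes lay between 100 and 500 FPKM (Rpl22, Rps15a, Rps27l, Rpl15, Rpl22l1 and Rpl36al), and the paralog Rpl7l1 averaged 66.5 FPKM.

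Below all of these were 3 genes. Rpl30 averaged 3.50 FPKM, Rps27 3.90 FPKM and Rpl34 12.6 FPKM. Rps27 was listed at 3.25, 3.17 and 3.80 FPKM in the unstimulated samples, although its paralog Rps27l was at 241, 261 and 284 FPKM. From the steps between low values, depth was estimated at roughly 7840000 to 13260000 reads per library, which would put Rps27 at about 14 to 31 reads and Rpl34 at about 56 to 116. The order of the levels also depends on the annotated exon length. Rps15a, with 5179 bases of exon, averaged 212 FPKM at an estimated 8056 to 14169 reads, while Rps27a, with 791 bases, averaged 1131 FPKM at an estimated 6640 to 11616 reads. By matching against annotated transcripts, 49.5% of the 100-base stretches of Rps27, 65.6% of Rpl30 and 19.5% of Rpl34 also occurred in transcripts of other genes. The median over the 80 genes was 40.5%, and the highest share was 91.6% (Rpl10). How reads that fit several genes were counted is not stated, and its part in the low levels was not tested.

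**Figure D1:**
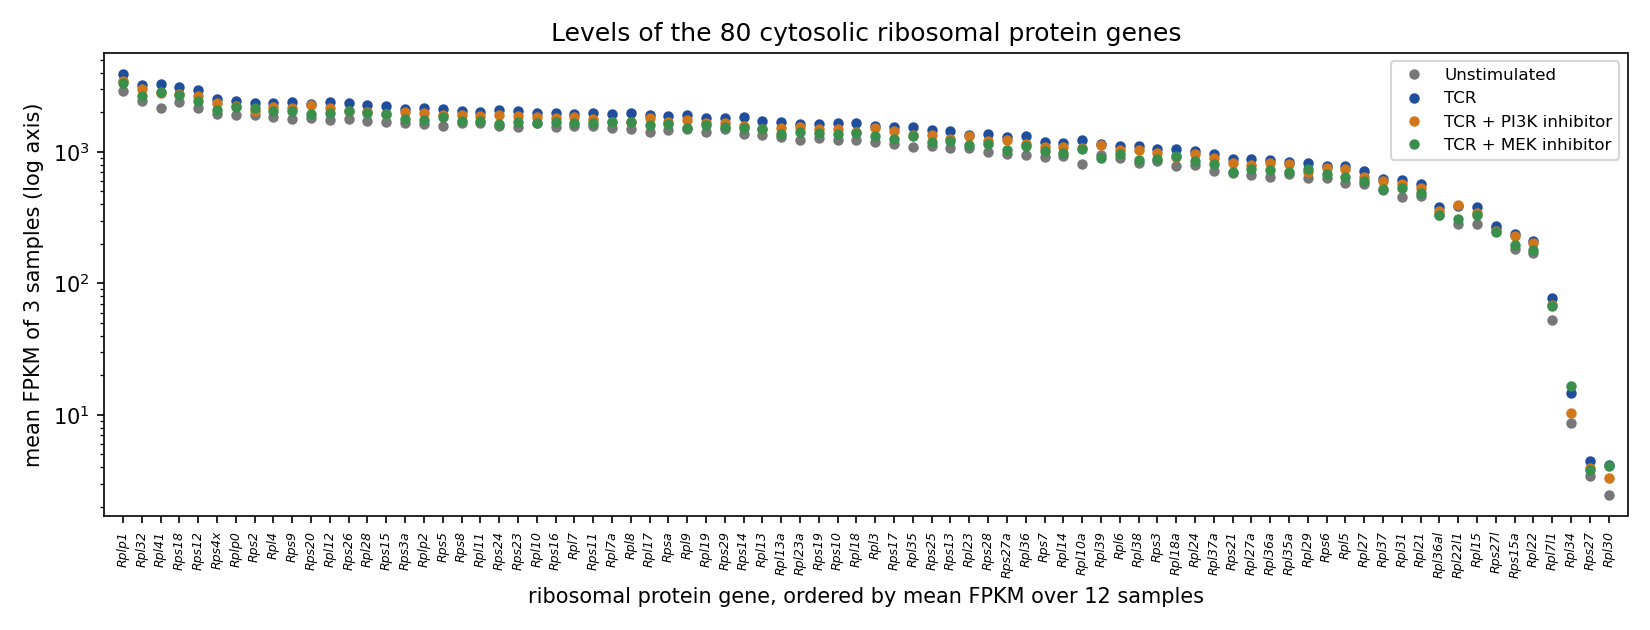
Mean FPKM of 3 samples per group (points, log axis) for each of the 80 genes, ordered by the mean over 12 samples. Of the 80 genes, 70 lie above 500 FPKM, and Rpl34, Rps27 and Rpl30 lie below 20 FPKM in every group.

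Summed over the 80 genes, FPKM was 93190 ± 6101 in unstimulated CTL (SD, n = 3 in each group), 121849 ± 9898 after TCR stimulation, 110957 ± 9283 when PI3K was inhibited and 103167 ± 1359 when MEK was. The FPKM sum over all genes moved as well, from 480159 ± 13795 in unstimulated CTL to 639396 ± 24340 after TCR stimulation. As a share of each library's FPKM sum, the genes therefore took 19.0, 19.0 and 20.2% in the unstimulated samples and 19.9, 18.3 and 18.9% after TCR stimulation. The share was 20.8, 19.2 and 19.1% with the PI3K inhibitor and 19.6, 18.9 and 19.6% with the MEK inhibitor. The 4 groups overlapped on this measure. Over the same samples, the 10 other genes with the highest FPKM in any library, led by Ifng, Ccl3, Ccl4 and Gzmb, were summed. They took 6.80 ± 0.22% of FPKM in unstimulated CTL and 18.7 ± 0.33% after TCR stimulation. With those 10 genes left out of the sum, the share of the ribosomal protein genes was 20.8 ± 0.79% in unstimulated and 23.4 ± 1.1% in TCR-stimulated CTL. Leaving out genes that took more of the sum after stimulation raises the share there by construction.

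**Figure D2:**
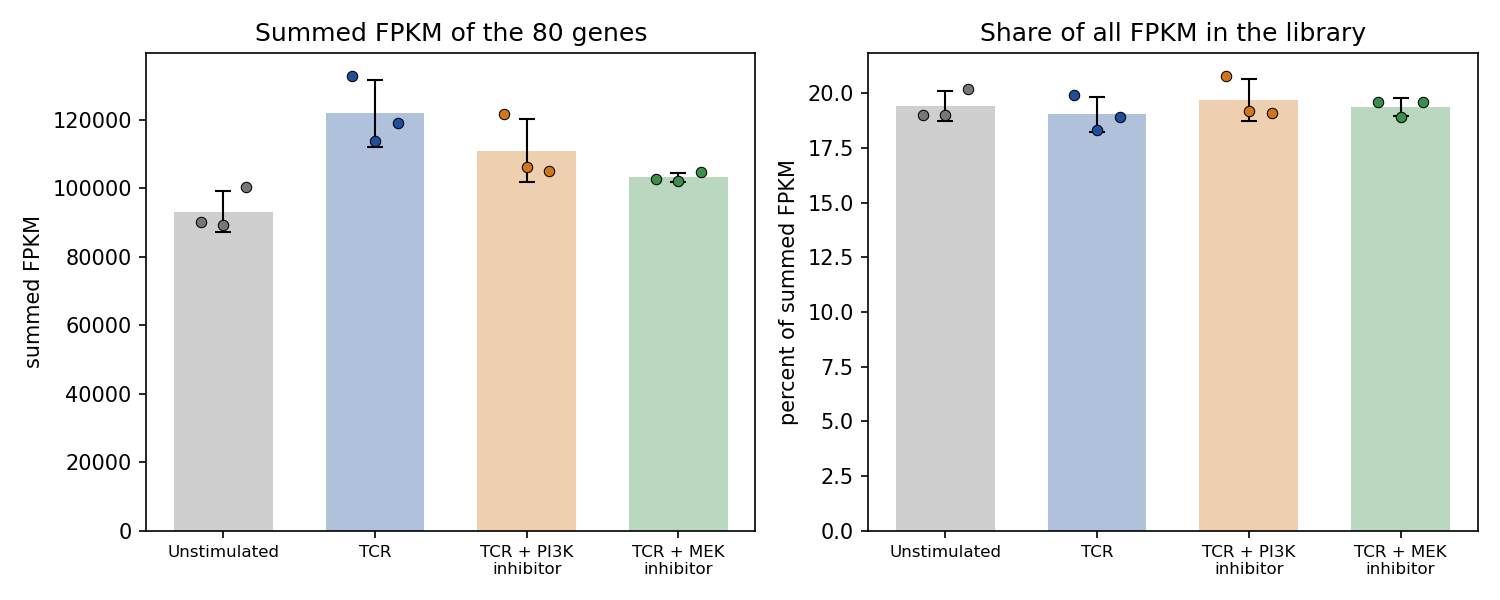
Left, summed FPKM of the 80 genes. Right, their percent of all FPKM in the same library. Bars show the mean of 3 samples, error bars the SD and points the samples; the sums are higher after TCR stimulation than in unstimulated CTL, while the shares overlap between all groups.

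The first comparison asked how retriggering of the receptor changed these mRNAs. On the deposited scale, 77 of the 80 genes rose (limma on log2(FPKM + 0.1), adjusted p under 0.05), against 33.6% of all genes, and none fell, against 34.9% of all genes. With every library set to 1 common FPKM sum, 4 rose and 3 fell, against 15.3% and 60.9% of all genes, and after quantile normalisation 4 rose and 15 fell, against 31.3% and 37%. The median change was 0.39 on the log2 scale (1.31-fold) against -0.01 for all genes, and with common sums it was -0.03 against -0.41. The genes thus stood 0.40 and 0.38 above the median gene on these scales. A common sum multiplies each library by a factor. That shifts the changes of all genes nearly alike, so these distances could hardly differ. After quantile normalisation the median of the set was 0.01 below that of all genes. In 74 of the 80 genes every stimulated sample was above every unstimulated sample on the deposited scale, against 34.7% of all genes, and in none was every one below, against 36.5% of all genes; with common sums these numbers were 4 and 10, against 15.7% and 61.8% of all genes. None changed over 2-fold, against 8.87% of all genes that rose and 11.1% that fell by this much.

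**Figure D3:**
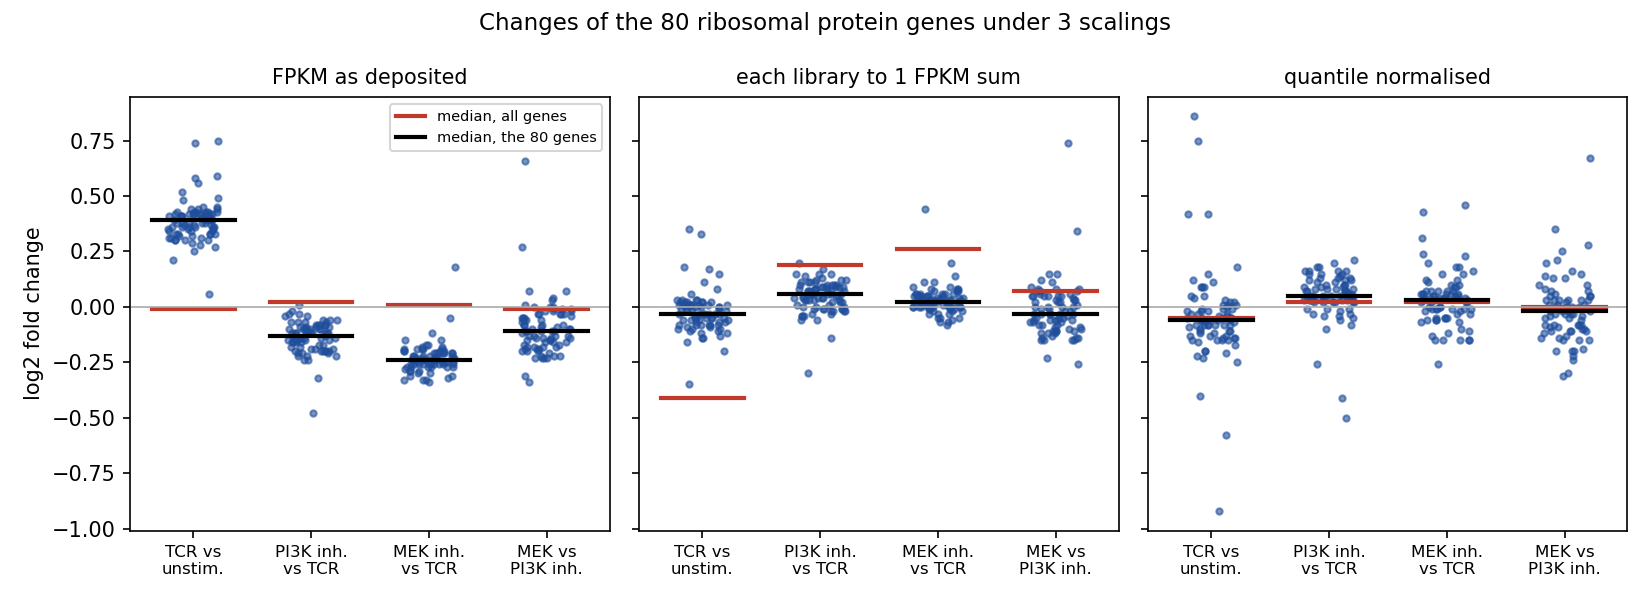
Log2 fold change of each of the 80 genes (points) in 4 comparisons under 3 scalings, with the median of the 80 genes (black) and of all genes (red). On the deposited scale the points lie above 0 after TCR stimulation and mostly below 0 with either inhibitor; with common sums or quantile normalisation they lie around 0.

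Median changes lay close together across the ribosome. On the deposited scale the small subunit had a median change of 0.38 with 30 of 32 genes called higher, and the large subunit 0.39 with 47 of 48. Of all genes, 33.6% were called higher. All 3 proteins of the P stalk, which recruits elongation factors, were called (0.37 to 0.43), as were both partners of the 5S rRNA, Rpl5 and Rpl11, which can also bind Mdm2 when ribosome assembly stalls. Of the measured exit tunnel proteins, 6 of 7, and all 4 proteins of the mRNA entry and decoding region were called on this scale. With common sums no gene of the stalk, 5S, exit tunnel and decoding groups was called. There, 1 small subunit gene fell and none rose, while 4 large subunit genes rose and 2 fell. The shares of all genes were 15.3% higher and 60.9% lower. The summed small subunit FPKM was 0.810 to 0.836 times the summed large subunit FPKM in every library, a ratio that multiplying a library by a factor cannot alter. Within these groups the calls of Rplp2 and Rpl11 were the least firm: that of Rplp2 (limma adjusted p = 0.03) was lost without unstimulated sample 1 or 2 or TCR sample 1 or 3, with an adjusted p of up to 0.113, and Rpl11 reached 0.0563 at most, losing its call without unstimulated sample 2 or TCR sample 1.

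The largest rises on the deposited scale were in Rpl30, Rpl34, Rpl10a, Rpl41, Rpl7l1, Rpl35, Rpl36 and Rpl22l1, from 0.75 down to 0.48, and all 8 stayed past the threshold without any single unstimulated or TCR library. With common sums 4 of all 80 genes were called higher, so at most 4 of these 8 kept the call. Rpl30 and Rpl34 lie at a low level, at an estimated 21 to 45 and 56 to 116 reads. Rpl10a, a protein of the mobile L1 stalk, was at 839, 818 and 790 FPKM in unstimulated CTL and at 1371, 1142 and 1179 FPKM after stimulation. The groups did not overlap, and the change of 0.59 ± 0.07 (SE, limma adjusted p = 2.08e-06) stayed past the threshold with common sums, at 0.18 (adjusted p = 0.00789).

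Rpl7l1 resembles Rpl7 and acts in assembly of the large subunit. It was at 52.5, 52.9 and 53.0 FPKM before and 79.3, 75.7 and 78.5 FPKM after stimulation. This was the tightest of the rises in relation to its error, 0.56 ± 0.05 (limma adjusted p = 1.63e-07), and 0.15 with common sums (adjusted p = 0.0203). Within each library, the ratio of Rpl7l1 to Rpl7 was 0.0355, 0.0360 and 0.0303 in unstimulated CTL and 0.0380, 0.0402 and 0.0423 after stimulation, without overlap.

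Rps27l, Rpl39 and Rps27 were not called. Rps27l, known as a p53 target, was at 241, 261 and 284 FPKM in unstimulated and 288, 267 and 261 FPKM in stimulated CTL, with a log2 change of 0.06 ± 0.07 (95% interval -0.08 to 0.20, limma adjusted p = 0.436). Its groups overlapped, and none of its 100-base stretches occurred elsewhere. Rpl39, a small protein lining the exit tunnel, changed by 0.27 ± 0.12 (limma adjusted p = 0.0591), and without unstimulated sample 3 its adjusted p was 0.00643. Rpl36al changed by 0.21 ± 0.08 (limma adjusted p = 0.0268) with overlapping groups, and without unstimulated sample 1 or 2 or TCR sample 1 or 3 it was not called, with an adjusted p of up to 0.127. The ratio of Rpl36al to its paralog Rpl36a was 0.487, 0.485 and 0.565 before and 0.420, 0.442 and 0.464 after stimulation. Shared sequence (59% and 83.6% of 100-base stretches) makes the split of reads between this pair uncertain. These paralog ratios are descriptive, since 3 samples against 3 cannot go below an exact permutation p of 0.10.

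**Figure D4:**
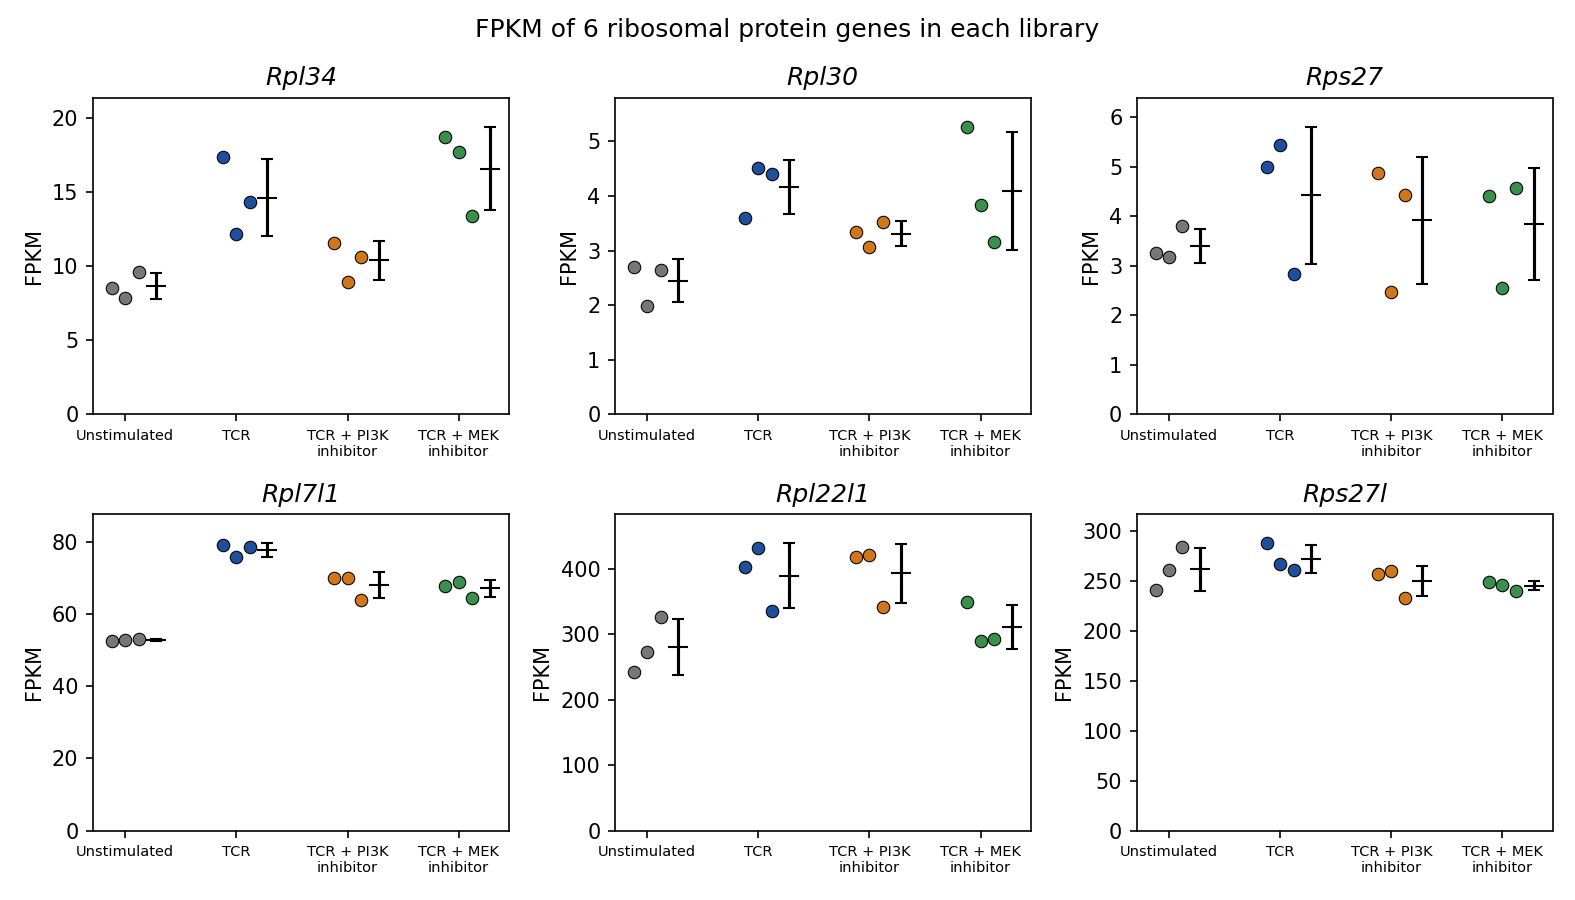
FPKM of 6 genes in each of the 12 libraries (points), with the mean and SD of 3 samples beside them. Rpl34 is lower with the PI3K inhibitor than with the MEK inhibitor in every sample, Rpl7l1 separates unstimulated from stimulated samples, and Rps27 and Rps27l overlap between unstimulated and TCR-stimulated samples.

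Single libraries carried the whole set together. In TCR sample 1, 79 of the 80 genes were above their group mean, with a median deviation of 0.12 on the log2 scale, while all genes had a median deviation of 0.00. In TCR sample 2, 77 of 80 were below it. PI3K inhibitor sample 1 had 76 of 80 above and unstimulated sample 3 had 74 of 80 above. Samples treated with the MEK inhibitor were closer together, with 25 to 56 genes above the mean. Genes of the set are thus not independent observations, and the counts below move with these libraries. The labels give no extraction batch that could be set beside these libraries.

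**Figure D5:**
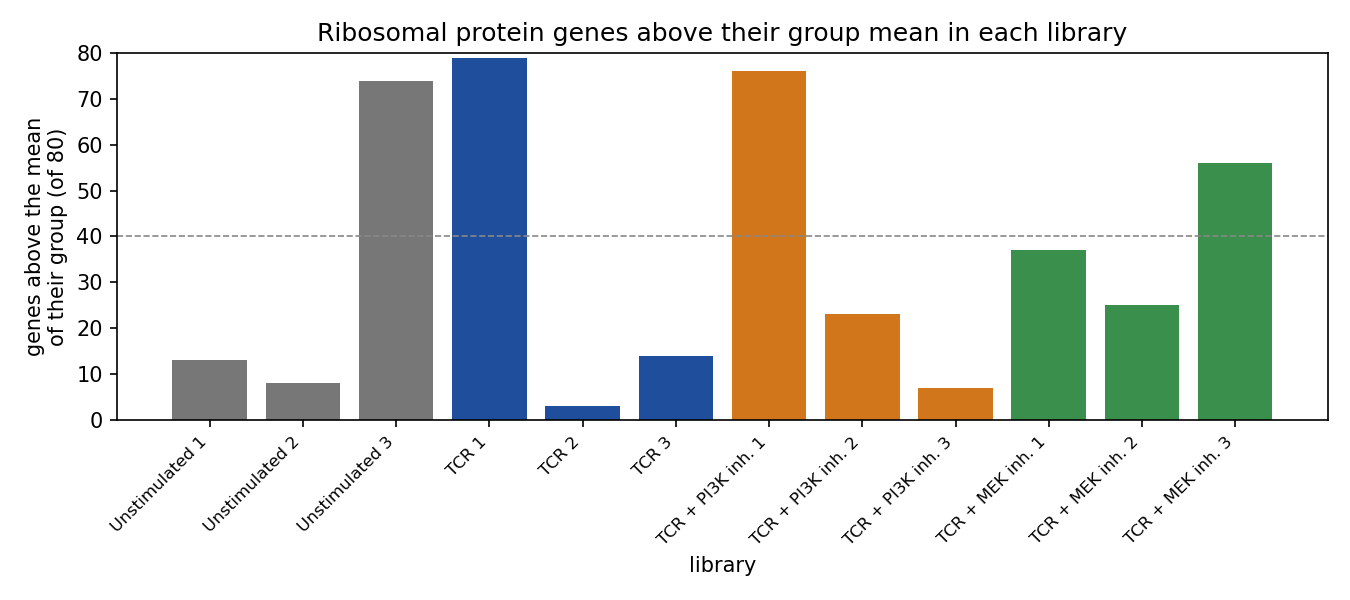
Number of the 80 genes above the mean of their own group in each library; the dashed line marks 40. TCR sample 1 (79), PI3K inhibitor sample 1 (76) and unstimulated sample 3 (74) are high, and TCR sample 2 (3) is low.

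The second comparison asked what PI3K p110δ inhibition did during stimulation. On the deposited scale, 5 of the 80 genes fell, or 6.25%, against 12.8% of all genes, and none rose, against 12.7% of all genes; with common sums none fell and 1 rose, against 5.04% and 34.6% of all genes. The median change was -0.13 against 0.02 for all genes, and with common sums 0.06 against 0.19. It was -0.07, -0.17 and -0.14 without TCR samples 1, 2 and 3, and -0.19, -0.09 and -0.08 without PI3K inhibitor samples 1, 2 and 3. The share of called genes was under the background on both scales. No gene changed over 2-fold, against 0.499% of all genes that rose and 1.38% that fell by this much. All PI3K inhibitor samples were below all TCR samples in 15 genes, against 18.6% of all genes, and above them in none, against 19%. With common sums they were below in none and above in 15, against 6.92% and 40.4% of all genes. The 5 were Rpl34, Rpl29, Rpl10a, Rpl7a and Rpl7l1, with changes from -0.48 to -0.20. Each of the 5 lost its call without at least 1 library. Without TCR samples 1, 2 and 3 in turn there were 1, 14 and 2 lower genes, and without PI3K inhibitor samples 1, 2 and 3 there were 20, 1 and 2. Rpl7a had an adjusted p of 0.0468, and of 0.0584 when replicate number was added as a block. At an unadjusted p under 0.05, 18 genes were lower, or 22.5% of the set beside 18.9% of all genes.

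The third comparison asked the same of MEK. Of the 80 genes, 49 fell (61.3%) as deposited, against 18.2% of all genes, and none rose, against 18.9%; with common sums none fell and 1 rose, against 5.88% and 50.2%, and after quantile normalisation none fell and 9 rose, against 15.5% and 18.8%. The median change was -0.24 (0.848-fold) against 0.01 for all genes, and with common sums 0.02 against 0.26. The change stayed small in each gene, between -0.34 and -0.19 among the 49. None passed 2-fold, against 0.98% of all genes upwards and 2.51% downwards. All MEK inhibitor samples were below all TCR samples in 68 genes, against 24.1% of all genes, and above them in none, against 24.6%. With common sums they were below in 1 and above in 7, against 7.06% and 56.1% of all genes. The median was -0.18 without TCR sample 1 and between -0.23 and -0.28 without any other TCR or MEK inhibitor sample. The count was 10, 60 and 32 without TCR samples 1, 2 and 3, and 22, 16 and 22 without MEK inhibitor samples 1, 2 and 3.

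The largest falls with the MEK inhibitor on that scale were in Rps24, Rpl39, Rpl38, Rpl22l1, Rpl9, Rps27a, Rps15a and Rps25, of which Rps25 alone kept its call without each single library. Rps24, a small subunit protein mutated in some patients with Diamond-Blackfan anaemia, was at 2184, 1980 and 2065 FPKM in TCR samples and at 1609, 1641 and 1663 FPKM with the inhibitor. These groups did not overlap, and the change was -0.34 ± 0.10 (limma adjusted p = 0.0173) but -0.08 with common sums (adjusted p = 0.379). Its call was lost without TCR sample 1 or MEK inhibitor sample 1 (adjusted p up to 0.058). Rps25 changed by -0.29 ± 0.08 (limma adjusted p = 0.00914) and Rpl5 by -0.29 ± 0.06 (limma adjusted p = 0.00153). Both stayed past the threshold on the deposited scale without any single TCR or MEK inhibitor library. With common sums or quantile normalisation neither was called lower. Rps27a, which is made as a fusion with ubiquitin, was at 1395, 1258 and 1224 FPKM in TCR samples and 1071, 1019 and 1031 FPKM with the inhibitor (limma adjusted p = 0.0156), and without TCR sample 1 its adjusted p was 0.0645. None of the 3 P stalk genes was called (adjusted p from 0.129 to 0.147), and the 95% interval for Rplp1 ran from -0.45 to 0.02.

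The genes of low level were not called with the MEK inhibitor. Rpl34 changed by 0.18 ± 0.14 (limma adjusted p = 0.346), with a 95% interval of -0.13 to 0.49 that left out the set's median of -0.24. The intervals of Rpl30 (-0.05, from -0.42 to 0.31) and Rps27 (-0.19, from -0.78 to 0.40) held both 0 and that median. Rps27 was spread from 2.84 to 5.43 FPKM within the TCR group alone.

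The last comparison set the inhibitors against each other, at the single dose of each; IC87114 and PD184252 have different targets. As deposited, 5 genes were lower with the MEK inhibitor (14.4% of all genes were) and 1 was higher (14.5% of all genes were), while with common sums 1 was lower and 1 higher, against 9.24% and 21.1% of all genes. The median was -0.11 against -0.01 for all genes, and with common sums -0.03 against 0.07. Without PI3K inhibitor sample 1 it was -0.05, and without any other sample of either group -0.15 to -0.10. None differed over 2-fold, against 1.39% of all genes that were higher and 1.71% that were lower. Groups were apart in 33 genes with the MEK inhibitor lower, against 22.7% of all genes, and in 1 with it higher, against 20.9%, and with common sums in 12 and 9, against 13.9% and 29.6%. The one higher gene was Rpl34, at 11.6, 8.96 and 10.7 FPKM with the PI3K inhibitor and 18.7, 17.7 and 13.4 FPKM with the MEK inhibitor. The groups did not overlap, and the difference of 0.66 ± 0.14 (limma adjusted p = 0.00299) was 0.74 with common sums (adjusted p = 0.000441) and held without any single library of either group. Rpl22l1 was lower by 0.34 ± 0.12 (limma adjusted p = 0.0458), at 417, 421 and 341 FPKM with the PI3K inhibitor and 349, 289 and 293 FPKM with the MEK inhibitor. Its groups overlapped, and leaving out PI3K inhibitor sample 1 or 2 or MEK inhibitor sample 2 or 3 ended the call (adjusted p up to 0.148). The ratio of Rpl22l1 to Rpl22, a paralog pair that can replace each other in the ribosome, was 1.90, 2.01 and 1.85 with the PI3K inhibitor and 1.90, 1.65 and 1.63 with the MEK inhibitor. Rpl23, Rpl5, Rpl3 and Rpl24 differed by -0.22 to -0.19. The number of lower genes was 0, 1 and 9 without PI3K inhibitor samples 1, 2 and 3, and 1 without each of the MEK inhibitor samples in turn.

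The pyrimidine run was set beside the changes on the deposited scale. After TCR stimulation the median was 0.40 over the 32 genes with the run and 0.36 over the 27 without it, and with the MEK inhibitor -0.23 and -0.24, as descriptions without a test. By shared sequence, 15 genes sharing under 10% of their 100-base stretches had a median of 0.36 after stimulation and -0.24 with the MEK inhibitor, and 33 genes sharing over 50% had 0.39 and -0.24.

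Other genes of the pathway were read from lists. Of 10 genes listed as ribosomal protein chaperones and their partners, Ncl included, 10 rose after stimulation on the deposited scale and after quantile normalisation, and 6 with common sums. The shares of all genes that rose were 33.6%, 31.3% and 15.3%. The median change of the 10 genes was 0.65 as deposited. Grwd1, the chaperone of Rpl3, was at 33.4 ± 1.26 FPKM before and 66.7 ± 4.79 FPKM after (0.99 ± 0.06), and Tsr2, the chaperone of Rps26, at 7.59 ± 0.54 and 14.3 ± 0.33 FPKM (0.90 ± 0.08). As deposited, 7 of these 10 fell under PI3K inhibition and 10 under MEK inhibition, and with common sums 2 and none fell. The shares of all genes that fell were 12.8% and 18.2% as deposited and 5.04% and 5.88% with common sums. A list of elongation factors and related genes held Eef1a1, Eef1b2, Eef1d, Eef1e1, Eef1g, Eef2, Eef2k, Tpt1 and Eif5a. Of these 9 genes, 8 rose and 1, the kinase Eef2k, fell (-1.12 ± 0.10) on the deposited scale, whereas with common sums 2 rose and 1 fell. The largest rise was in Eef1e1 (1.16 ± 0.07). Of 13 other TOP mRNAs, 9 rose and 1, Vim, fell (-0.78 ± 0.06), and with common sums 1 rose and 6 fell. Among 11 regulators of TOP mRNAs, 5 rose and 2 fell, and with common sums 3 rose and 6 fell. For these 3 lists the background was 33.6% of all genes higher and 34.9% lower as deposited, and 15.3% and 60.9% with common sums. Larp1 was at 95 ± 3.74 FPKM before, 163 ± 6.49 FPKM after stimulation, 134 ± 8.48 FPKM with the PI3K inhibitor and 170 ± 6.38 FPKM with the MEK inhibitor. Eif4ebp1, a repressor of cap-dependent translation, was at 58.1 ± 1.12, 172 ± 16.7, 119 ± 8.44 and 174 ± 8.04 FPKM in unstimulated, TCR, PI3K inhibitor and MEK inhibitor samples. Of the 11 regulators, 2 rose and 2 fell with the PI3K inhibitor as deposited, against 12.7% and 12.8% of all genes. Pdcd4 rose by 1.09 ± 0.12 and Larp1b by 0.24 ± 0.07, while Eif4ebp1 and Larp1 fell. With common sums 3 rose and 1 fell, against 34.6% and 5.04%. With the MEK inhibitor Eif4ebp2 rose and Larp1b fell, against 18.9% and 18.2%. There, common sums gave 9 that rose and none that fell, against 50.2% and 5.88%.

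The CTL label was checked against markers. All 7 CTL markers were present, with Cd8a at 221 to 417 FPKM as group means, while the 5 B cell and 4 erythroid markers had no row. Of 7 myeloid markers 3 had one, summing to 12.4 to 22.4 FPKM per library. Of 3 CD4 T and NK cell markers only Cd4 had a row, at 0.773 ± 0.293, 2.69 ± 0.168, 2.94 ± 0.875 and 0.45 ± 0.193 FPKM in unstimulated, TCR, PI3K inhibitor and MEK inhibitor samples. It rose by 1.74 ± 0.29 after stimulation (limma adjusted p = 9.53e-05) and fell with the MEK inhibitor (limma adjusted p = 2.31e-05), and its part in the results was not tested. In bulk samples, fewer cells of a type and less RNA per cell cannot be told apart, and a change in total RNA per cell would not appear in these values.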

How the data were processed

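Libraries were made from 300 ng of total RNA with a stranded mRNA kit and sequenced as 100-base paired-end reads. Per the labels, the authors aligned reads with STAR 2.4.2a to mm10 and counted genes with Subread 1.5.0. Per the study's methods they removed low counts, scaled by TMM and computed the deposited FPKM with edgeR from summed exon lengths. Whether counting used the strand is not given in the sources used here. All 12 value columns were assigned by their headers.

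Here log2(FPKM + 0.1) of all 11022 genes was fitted with limma 3.58.1 (R 4.3.3) over the 12 samples, with a trended prior and Benjamini-Hochberg adjustment over all genes. A call is an adjusted p under 0.05. The study's own rule added a 2-fold change. The script was tested on simulated data. The genes and lists were chosen with earlier results of these data known. Named genes were, per comparison, the 8 largest rises and 8 largest falls with an adjusted p under 0.05 and the same direction in 3 same-numbered pairs, listed paralogs and structural groups, and the 3 highest and 3 lowest mean FPKM. The window search for the pyrimidine run, the paralog partners Rpl22, Rpl36a and Rpl7, the genes Rpl10, Rpl15, and the count by library were added after seeing the values. Alternatives changed the pseudocount, filter, scaling, block, samples, prior and replicates.

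Depth was not given and was estimated from low values, of which 56.8% to 69.2% per library lay within 0.15 of a whole read, so read numbers are rough. Same-numbered samples are not said to share a mouse. Their deviations correlated at 0.24 to 0.45 (PI3K inhibitor and TCR), 0.12 to 0.18 (MEK inhibitor and TCR) and 0.14 to 0.15 (both inhibitors), and at 0.00 to 0.15 for TCR and unstimulated, over 9899 genes. Nothing says that the cultures were independent throughout, so p-values set the changes against the spread between these samples alone.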

Additional observations from a re-analysis of the deposited data

Results flagged for a closer look

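The effects of the inhibitors differed from each other in 5 genes that were lower and 1 that was higher under MEK than under PI3K inhibition, by the limma test of that difference on the deposited scale. These are 6.25% and 1.25% of the set, under the 14.4% and 14.5% of all genes, and with common sums 1 was lower and 1 higher. The higher gene was Rpl34 (0.66 on the log2 scale). The lower genes were Rpl22l1 (-0.34), Rpl23 (-0.22), Rpl5 (-0.20), Rpl3 (-0.19) and Rpl24 (-0.19). Of these, Rpl34 kept its adjusted p under 0.05 without any single library, and the others lost it without at least 1. Both comparisons against TCR share the TCR samples, and groups of 3 samples were too small for a check of single outlying samples.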

How the results depend on the processing

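The scaling between libraries decided the counts. With common FPKM sums, called genes numbered 4 higher and 3 lower after TCR stimulation, 1 higher and 0 lower with the PI3K inhibitor, 1 higher and 0 lower with the MEK inhibitor, and 1 higher and 1 lower between the inhibitors. Quantile normalisation gave 4 and 15, 3 and 1, 9 and 0, and 5 and 10. The shares of all genes were 31.3% and 37%, 11.8% and 10.3%, 18.8% and 15.5%, and 15.4% and 14.8%. This scaling gives each rank the same value in every library, the top ranks included, while genes can still change rank. Genes lower with the PI3K inhibitor numbered 8 with a mean FPKM of at least 1, 1 without the trended prior and 2 with the compared groups alone, and between the inhibitors 2 without the trended prior. Leaving out 1 library gave 70 to 78 higher genes after TCR stimulation, 1 to 20 lower with the PI3K inhibitor, 10 to 60 lower with the MEK inhibitor, and 0 to 9 lower between the inhibitors. The replicate block gave 77, 6 and 53 called genes for the 3 comparisons against unstimulated or TCR samples, and 1 higher and 5 lower between the inhibitors; it ended the call of Rpl7a, made those of Rpl11 and Rpl36al with the MEK inhibitor (adjusted p = 0.0418 and 0.031), and changed no other named call. The share of FPKM became 21.5, 25.4, 24.6 and 23.3% (unstimulated, TCR, PI3K inhibitor, MEK inhibitor) without genes changed over 2-fold by stimulation. It was 20.8, 23.4, 23.4 and 22.1% without the 10 other genes highest in any library. Both sets were chosen with the stimulated samples of these data, so these shares are descriptions. The sign reversals listed next are those of the named genes alone. Of all 80 genes, 49 were below 0 after TCR stimulation with common sums and 59 after quantile normalisation, against none as deposited. Above 0 were 60 and 65 with the PI3K inhibitor and 57 and 50 with the MEK inhibitor, against 1 as deposited in each. Between the inhibitors 32 were above 0 on either scale, against 9 as deposited. Common sums reversed the sign after TCR stimulation to -0.35 (Rps27l), -0.20 (Rpl36al), -0.14 (Rpl39), -0.13 (Rps2), -0.12 (Rpl11), -0.09 (Rps3), -0.08 (Rps27), -0.07 (Rpl4), -0.05 (Rpl19 and Rplp0), -0.03 (Rpl23a, Rpl32 and Rplp2), -0.01 (Rps23), -0.00 (Rps15). Quantile normalisation reversed the sign after TCR stimulation to -0.92 (Rplp1), -0.58 (Rpl32), -0.25 (Rps2), -0.23 (Rps27l), -0.15 (Rpl4), -0.14 (Rpl36al), -0.13 (Rpl11), -0.12 (Rpl39 and Rplp0), -0.08 (Rpl19 and Rpl5), -0.07 (Rplp2), -0.06 (Rps15), -0.05 (Rps3), -0.04 (Rpl41), -0.03 (Rpl17 and Rpl23a), -0.01 (Rps23). Common sums reversed the sign with the PI3K inhibitor to 0.00 (Rps27), 0.02 (Rplp2), 0.04 (Rplp0), 0.05 (Rpl19), 0.06 (Rpl11, Rps23 and Rps27l), 0.07 (Rpl31 and Rps3), 0.08 (Rpl36al), 0.09 (Rpl32 and Rpl4), 0.10 (Rpl5), 0.11 (Rpl17), 0.12 (Rpl23a), 0.17 (Rpl39). Quantile normalisation reversed the sign with the PI3K inhibitor to 0.03 (Rpl31, Rpl35 and Rps15), 0.04 (Rplp0, Rplp2, Rps2 and Rps27l), 0.05 (Rps23 and Rps3), 0.06 (Rpl11 and Rpl36al), 0.07 (Rpl19), 0.08 (Rpl41), 0.10 (Rpl23a), 0.12 (Rpl5), 0.15 (Rpl17), 0.16 (Rpl39 and Rpl4), 0.20 (Rpl32), 0.21 (Rplp1). Common sums reversed the sign with the MEK inhibitor to 0.02 (Rpl11 and Rpl17), 0.03 (Rpl35), 0.05 (Rpl36al, Rpl7l1, Rplp1 and Rps15), 0.06 (Rpl31 and Rps27), 0.07 (Rpl23a and Rpl4), 0.08 (Rpl19), 0.09 (Rpl41), 0.11 (Rplp0 and Rps27l), 0.14 (Rps2), 0.20 (Rpl30). Quantile normalisation reversed the sign with the MEK inhibitor to 0.02 (Rplp2), 0.03 (Rps23), 0.04 (Rpl31, Rpl5 and Rps27l), 0.05 (Rpl35), 0.06 (Rpl11 and Rpl17), 0.07 (Rpl23a), 0.09 (Rps15), 0.10 (Rpl19), 0.15 (Rpl4), 0.18 (Rplp0), 0.20 (Rpl32), 0.24 (Rps2), 0.43 (Rpl41), 0.46 (Rplp1). Common sums reversed the sign between the inhibitors to 0.03 (Rpl19), 0.04 (Rpl35), 0.05 (Rplp1 and Rps27l), 0.06 (Rpl7l1 and Rps27), 0.07 (Rplp0 and Rps15). Quantile normalisation reversed the sign between the inhibitors to 0.00 (Rpl32), 0.01 (Rpl31 and Rps27l), 0.02 (Rpl35), 0.03 (Rpl19), 0.07 (Rps15), 0.14 (Rplp0), 0.25 (Rplp1). Leaving Rpl30, Rpl34 and Rps27 out of the share, an alternative chosen after seeing the data, left it at 19.4, 19.0, 19.7 and 19.4%. Low levels limit Rps27, Rpl30 and Rpl34.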

Other observations

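The 76 genes of the mitochondrial ribosome (symbols Mrpl or Mrps and a number) are encoded in the nucleus and serve translation inside mitochondria. On the deposited scale 32 of them rose and 12 fell after TCR stimulation, with a median of 0.17 (all genes 33.6% and 34.9%, median -0.01), whereas with common sums 3 rose and 44 fell, or 3.95% and 57.9%, with a median of -0.25 (all genes 15.3% and 60.9%, median -0.41). With the PI3K inhibitor 15 fell and none rose on the deposited scale (all genes 12.8% and 12.7%), and with common sums none fell and 9 rose (5.04% and 34.6%). With the MEK inhibitor 25 fell and 3 rose (18.2% and 18.9%), and with common sums none fell and 24 rose (5.88% and 50.2%). Their range after stimulation, -0.72 to 1.49, was wider than the 0.06 to 0.75 of the cytosolic genes.

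Of the other 86 genes with a mean above 500 FPKM, 46 rose and 18 fell after stimulation on the deposited scale (median 0.20), against 69 and 0 of the 70 cytosolic ribosomal protein genes at that level (median 0.39). With common sums the counts were 28 and 45, and 2 and 1. The difference between these sets was not tested.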
